A study of Mus musculus with 9 samples.

Results

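The line SAM1 was compared with empty vector cells across all genes of a polyA+ RNA-Seq table of mouse embryonic fibroblasts (MEFs), which are connective tissue cells cultured from midgestation embryos. The 3 libraries titled SAM1 and the 3 titled Empty, 6 of the 9 libraries in the series, were chosen by their titles. The remaining 3 libraries, titled SAM2, carry the same genotype label as SAM1 and served only to show which differences were particular to SAM1. The question that the design poses is what changes in a fibroblast when the endogenous Hnrnpk gene is targeted for activation.

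Both groups were MEFs kept in serum-supplemented DMEM with antibiotics, and no further treatment is labelled. The genotype label is Empty vector for the controls and Hnrnpk_SAM for SAM1. By the study's methods, WT MEFs received 2 lentiviral vectors of the CRISPR synergistic activation mediator, lentiMPHv2 and lentiSAMv2, and were selected with blasticidin and hygromycin. The activator vector of SAM1 carried a guide RNA to Hnrnpk, while the control vector is called empty in the labels and is described in the methods with a non-targeting guide. The labels do not say which Hnrnpk guide SAM1 carries. Their library protocol speaks of sgRNA2 cells, and the study's reagent list, read here from page images, prints the same letters for the second Hnrnpk guide and the non-targeting guide, so the sequences that set SAM1 and its control apart are not settled here. SAM1 is a single transduced line set against a single control population, so an effect of Hnrnpk activation and a difference between these cell populations that arose in any other way cannot be told apart. Nothing states that the libraries of a line came from separate cultures, so p-values measure only the spread between these libraries, which may be technical.

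The synergistic activation mediator couples a catalytically dead Cas9 fused to an activation domain with a guide RNA whose loops recruit further activators, and so raises transcription from a promoter without cutting DNA. The protein encoded by Hnrnpk binds cytosine-rich RNA and DNA and takes part in transcription, splicing, mRNA stability and translation, including that of p53 target genes and Myc. Fibroblasts make collagen matrix, divide until they senesce, and keep amino acid supply, protein folding and interferon defence under dedicated transcription programmes, each of which is followed here by a gene list.

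Values are read counts divided by a size factor, called normalized counts. The empty vector libraries held 41759636 to 47938734 reads in genes and the SAM1 libraries 44465102 to 46845966. Correlations of log2 values across genes were 0.995 to 0.997 between libraries of the same group and 0.954 to 0.955 between the groups, and no pair of libraries agreed within sampling noise. Over the 7543 genes with a SAM1 mean of at least 1000, the median coefficient of variation between SAM1 libraries was 3.25%. All 11 fibroblast markers were measured in both groups, with a summed level of 651785 to 699050 normalized counts in empty vector and 577601 to 580992 in SAM1. Singly, 4 of the 11 rose and 7 fell in SAM1 by the test given below. Their log2 differences ran from -2.12 to 1.89, with a median of -0.47 beside 0.01 in SAM2.

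Of 15184 genes, 5667 (37.3%) rose in SAM1 and 5608 (36.9%) fell by limma at an adjusted p of 0.05, 74.3% in all. The median log2 difference over all genes was 0.01 and the median size of a difference was 0.38. A change of at least 1 on the log2 scale was found in 1935 genes that rose (12.7%) and 766 that fell (5.04%). The 3 SAM1 libraries did not overlap the 3 empty vector libraries in 74.4% of genes. With libraries this alike within a group, passing the test is the usual state of a gene, so that the shares of each gene list are read against these background shares. SAM1 stood apart from both empty vector and SAM2, by a limma contrast with their mean and with its 3 libraries beyond all 6 others, in 3090 genes on the higher side (20.4%) and 3131 on the lower side (20.6%). Of these, 1104 (7.27%) and 354 (2.33%) of all genes differed by at least 1 on the log2 scale. The contrast with the mean does not test SAM1 against SAM2 alone, so a change shared by both lines can also count. Trp53, for example, counts here with SAM1 minus SAM2 of 0.06 (adjusted p = 0.115, limma). SAM2 differed from the same empty vector libraries in 10699 genes (70.5%), so that values of SAM1 and SAM2 set side by side share their controls.

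**Figure D1:**
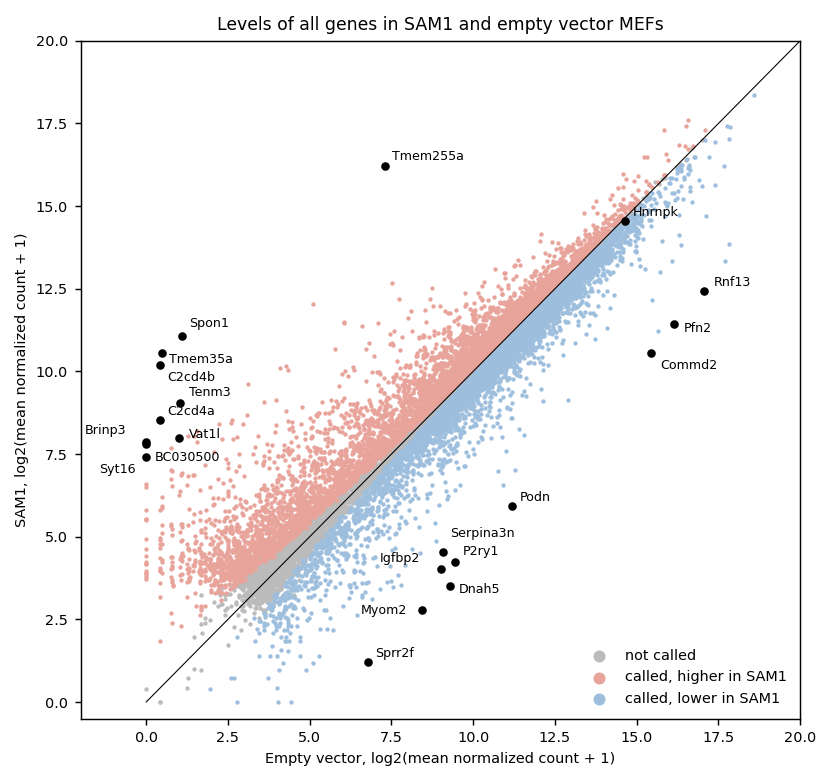
Each point is a gene, with log2 of its mean normalized count plus 1 in 3 empty vector libraries on the x axis and in 3 SAM1 libraries on the y axis. Red genes were called higher, blue genes lower and grey genes were not called, and black points mark Hnrnpk, near the diagonal of equal levels, and the 20 largest changes.

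Hnrnpk mRNA was not higher in SAM1 in the values as deposited. The gene lies on chromosome 13 (58536691 to 58551339, minus strand, GRCm39), and SAM1 gave 24102, 24045 and 23619 normalized counts for it where the control libraries ranged from 25058 to 26164. The SAM1 libraries all lay below the control libraries, a log2 difference of -0.11 (SE 0.0266, adjusted p = 0.00252, limma), although quantile normalization turned this into 0.09, past the threshold in the other direction (adjusted p = 0.00502). In SAM2 the mean was 26563 ± 321 (SD, n = 3). As deposited, the values do not show the higher Hnrnpk mRNA that the label Hnrnpk_SAM stands for, the direction depends on the normalization, and SAM1 means throughout the line labelled so. Rmi1, a subunit of the complex that dissolves Holliday junctions, starts within the opposite strand of the same locus (58550047 to 58558965, plus strand). It was measured at 340, 352 and 349 normalized counts in empty vector and at 720, 698 and 680 in SAM1. These groups were far apart, and Rmi1 rose by 1.01 on the log2 scale (SE 0.0515, adjusted p = 9.11e-10), with 779 ± 37.4 (SD, n = 3) in SAM2. The gene models overlap on opposite strands and strand-specific counting is not stated, so reads in the shared stretch cannot be assigned with certainty.

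The paralogs and other hnRNP genes moved little. Of 25 genes for hnRNP and poly(C)-binding proteins, 13 rose and 10 fell, with a median log2 difference of 0.10. None of the 25 changed by 1 or more on that scale.

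**Figure D2:**
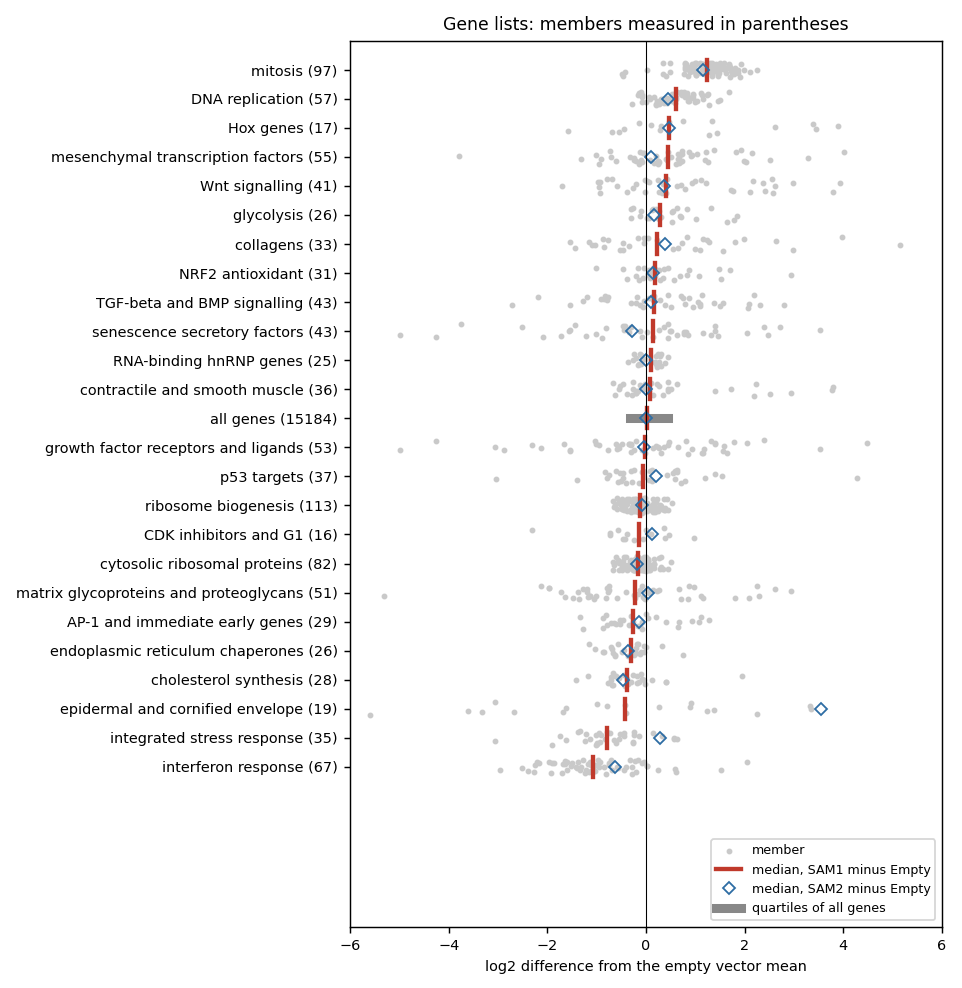
Log2 differences from the empty vector mean (x axis) of the members of 24 gene lists, with the number measured in parentheses. Grey points are genes in SAM1, red bars their medians, open blue diamonds the medians of SAM2 and the grey band the quartiles of all genes, so that the mitosis list lies furthest right and the interferon list furthest left.

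Genes of mitosis were higher throughout the SAM1 libraries. Of 97 members, 93 rose and 3 fell, with a median log2 difference of 1.23. All 24 kinesins and spindle proteins rose (median 1.40), as did all 10 mitotic kinases and passenger proteins (1.17), all 9 condensins (1.24) and all 5 cytokinesis genes (1.17). The spindle checkpoint protein Bub3, the Cdk1-inhibiting kinase Wee1 and securin, Pttg1, fell by 0.49, 0.46 and 0.43, and the kinetochore gene Zwint was not called (0.02, adjusted p = 0.469).

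Dlgap5, a spindle-stabilizing protein, had 850 to 911 normalized counts in empty vector and 4203, 4088 and 4237 in SAM1. The groups did not overlap and the gene rose by 2.25 on the log2 scale (SE 0.0348, adjusted p = 1e-14). The checkpoint kinase Bub1b went from 1602, 1577 and 1565 in empty vector to 4844, 4808 and 4942 in SAM1, an increase of 1.62 (SE 0.0291, adjusted p = 4.09e-14) with no overlap. SAM2, which is set against the same empty vector libraries, had a median of 1.15 over the mitosis list. Of the 97 genes, 50 stood apart from both other groups on the higher side in SAM1, against 20.4% of all genes. A rise shared by both lines also moves that contrast, so this count does not show a mitotic rise private to SAM1.

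The promoters were searched for an element known from G2/M genes. The cell cycle genes homology region (CHR), TTTGAA on either strand, through which the DREAM complex represses and MuvB with B-MYB and FOXM1 activates G2/M genes, was found between 250 bases before and 50 bases after the annotated start in 44 of 97 mitosis genes (45.4%) and in 13.5% of 12999 promoters. The windows below, 30 bases of GRCm39 each with the match in capitals and given 5′ to 3′ on the strand of the gene, belong to the matching genes with strong calls in the list.
Ccnf, chr17:24470386-24470415, minus strand: gtaggagctcccggcgcgTTTGAAaacggg
Ube2c, chr2:164611808-164611837, plus strand: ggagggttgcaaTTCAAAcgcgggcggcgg
Ndc80, chr17:71833810-71833839, minus strand: ggcggaaactttaaaaTTCAAAccgccttg
Racgap1, chr15:99549515-99549544, minus strand: ctggtgcgtgatTTTGAAccggatctggcg
Espl1, chr15:102204689-102204718, plus strand: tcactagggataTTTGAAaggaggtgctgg
Ccnf encodes cyclin F, Ube2c a ubiquitin-conjugating enzyme of the anaphase-promoting complex, Ndc80 a microtubule-binding kinetochore protein, Racgap1 a cytokinesis regulator and Espl1 separase. Their log2 differences were 1.98, 1.76, 1.47, 1.10 and 1.69. The median was 1.17 for the genes with a match and 1.29 for the 53 without. Bub3 and Pttg1, which fell (-0.49 and -0.43), and Zwint, which was not called (0.02), also hold a match.

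DNA replication genes rose as well, by less. Of 57 members, 47 rose and 4 fell, with a median of 0.61, and 18 of 19 origin licensing genes rose. Rrm2, the regulated subunit of ribonucleotide reductase, was measured at 1199, 1164 and 1260 normalized counts in empty vector and at 3915, 3904 and 3884 in SAM1. The increase was 1.69 (SE 0.0378, adjusted p = 2.95e-13) with no overlap, and SAM2 lay between the groups at 2584 ± 83.7 (SD, n = 3). Its partner Rrm1 was not called (0.01, adjusted p = 0.816). Mcm10, an origin firing factor, rose from 713, 755 and 738 to 2001, 2094 and 2144 normalized counts, and Mcm5, a subunit of the replicative helicase, rose by 1.14 on the log2 scale. Relative to both other groups 35 of the 57 genes were higher in SAM1, beside 20.4% of all genes.

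An E2F site, GCGGGAA on either strand, lay in 12 of the 57 replication promoters (21.1%) and in 7.65% of all promoters. Examples are shown with the match in capitals, since E2F factors are the known activators of S-phase genes.
Uhrf1, chr17:56610278-56610307, plus strand: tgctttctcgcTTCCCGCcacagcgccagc
Mcm4, chr16:15455469-15455498, minus strand: cggccccgggtTTCCCGCcaaaacgcaatc
Cdt1, chr8:123294761-123294790, plus strand: gcgcggaatccGCGGGAActacctttttgg
Uhrf1, a reader of hemimethylated DNA, differed by 1.26, the helicase subunit gene Mcm4 by 0.84 and the licensing factor gene Cdt1 by 0.88 on the log2 scale. Each of the 3 rose, whereas Rrm1 and Cdc7, also among the 12 with a match, were not called (0.01 and 0.07). The median was 0.611 for the genes with a match and 0.608 for the 45 without.

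Among cell cycle brakes the directions were mixed. Trp53, encoding p53, was at 1079, 1114 and 1060 normalized counts in empty vector and at 2505, 2462 and 2452 in SAM1. These values do not overlap, and Trp53 rose by 1.19 (SE 0.0338, adjusted p = 2.96e-12), with 2364 ± 36.9 (SD, n = 3) in SAM2. Of 37 genes in the p53 target list, 12 rose, Trp53 itself among them, and 15 fell (median -0.05). In all 73.0% of the list was called, beside 74.3% of all genes. The roles within it differed. Of 13 DNA repair and metabolism targets, 8 rose and 1 fell (median 0.60, highest 4.27). Of 11 apoptosis targets, 2 rose and 7 fell (median -0.41), and of 8 cell cycle targets, 1 rose and 5 fell (median -0.36). Mdm2, the ubiquitin ligase that degrades p53, was not called (-0.05, adjusted p = 0.127). Cdkn1a, encoding p21, had 1563, 1647 and 1491 in empty vector and 1267, 1353 and 1366 in SAM1, without overlap, and fell by 0.24 (SE 0.0489, adjusted p = 0.000653). The membrane protein gene Perp, an apoptotic p53 target, had 4272, 4727 and 4569 normalized counts in empty vector and 552, 568 and 522 in SAM1, a log2 difference of -3.04 (SE 0.0511, adjusted p = 2.15e-14).

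Genes of the G1 phase fell in part. Of 16 CDK inhibitors, G1 cyclins and kinases and pocket proteins, 5 rose and 8 fell. Cdkn2a, the locus of p16 and p19ARF, fell by 0.42 (adjusted p = 2.36e-06) from 24253, 27194 and 25255 to 18519, 20338 and 18286 normalized counts, and its neighbour Cdkn2b by 0.74. The D-cyclin partner kinase Cdk6 was at 11614, 10790 and 11033 in empty vector and at 2274, 2143 and 2325 in SAM1, with all SAM1 values below. The fall by 2.31 (SE 0.0397, adjusted p = 2.7e-14) was the largest of the list, and SAM2 had 4003 ± 128 (SD, n = 3). Ccnd1, encoding cyclin D1, fell by 0.74 and Ccnd2, encoding cyclin D2, by 0.39, and in SAM2 Ccnd2 was higher than in empty vector by 0.54. Plk2, a stress-responsive Polo-like kinase, fell by 0.76.

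Myc, the growth-promoting transcription factor, fell more in SAM1 than in SAM2. Its values were 14778, 15113 and 14628 normalized counts in empty vector and 9389, 9524 and 9466 in SAM1, with no overlap. The fall was by 0.65 on the log2 scale (SE 0.025, adjusted p = 5.53e-11), the SAM2 mean was 14126 ± 136 (SD, n = 3, log2 difference from empty vector -0.07), and SAM1 minus SAM2 was -0.58 (adjusted p = 6.22e-10).

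The ribosome lists leaned downward by small amounts. Of 82 cytosolic ribosomal protein genes, 11 rose and 45 fell (median -0.16), and no member changed by 1 or more. Among the 3 members with the smallest p-values, Rpl7, a large-subunit protein, fell by 0.64, and the stalk proteins Rplp1 and Rplp0 by 0.54 and 0.49, while Rpl8 rose by 0.27. These genes have many processed pseudogenes, so reads may be split between copies. Of 113 ribosome biogenesis genes measured, 33 rose and 60 fell (median -0.13), the large-subunit assembly factors most often with 31 of 47 lower. Ncl, encoding the nucleolar protein nucleolin, rose by 0.30 (adjusted p = 9.65e-07) from 31643, 32443 and 31349 to 37783, 40579 and 39046 normalized counts. Npm1, nucleophosmin, fell by 0.46 (adjusted p = 2.13e-06) and Fbl, the snoRNP methyltransferase fibrillarin, by 0.16 (adjusted p = 0.00741). The processome protein Wdr75, the snoRNP core protein Nop58 and the assembly factor Wdr12 fell by 0.60, 0.58 and 0.63. The medians in SAM2 were -0.18 for ribosomal proteins and -0.09 for biogenesis.

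The integrated stress response separated SAM1 from both other groups. This pathway lowers general translation when amino acids are short or the endoplasmic reticulum is overloaded, and lets the transcription factor ATF4 raise genes of amino acid synthesis and import. In SAM1, 30 of 35 members fell, 4 rose and the median was -0.79. The same 35 genes had a median of 0.29 in SAM2, measured against the same controls. The count of members below every library of both other groups in SAM1 was 30 (85.7%), where 20.6% of all genes were. These included 15 of 16 genes of amino acid synthesis and transport, 6 of 7 transcription factors and 9 of 12 others.

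Cth, cystathionine gamma-lyase, which makes cysteine, was measured at 4154, 4226 and 4203 normalized counts in empty vector, at 1213, 1261 and 1252 in SAM1 and at 6980, 6966 and 6765 in SAM2. SAM1 lay lowest and SAM2 highest with no overlap. The fall in SAM1 was by 1.76 (SE 0.0299, adjusted p = 2.51e-14), whereas Cth rose by 0.72 in SAM2 (adjusted p = 1.84e-10).

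Gpt2, a mitochondrial alanine transaminase, was at 9307, 9281 and 9280 in empty vector and at 4040, 3939 and 3919 in SAM1, a fall by 1.23 (SE 0.0262, adjusted p = 1.98e-13). Psph, the last enzyme of serine synthesis, went from 6202, 6557 and 6407 to 2462, 2527 and 2420, a fall by 1.37 (SE 0.031, adjusted p = 3.31e-13). In both genes the SAM1 libraries lay below all others. Fgf21, a secreted metabolic hormone induced by ATF4, was near 585 normalized counts in every empty vector library (581 to 585), at 72.1, 77 and 57.6 in SAM1 and at 777, 728 and 692 in SAM2. Its log2 difference in SAM1 was -3.07 (SE 0.0934, adjusted p = 5.48e-12), the lowest of the list. Atf3, a stress-induced repressor, fell by 1.35 (adjusted p = 1.86e-12) from 7143, 7554 and 7392 to 2867, 3048 and 2775.

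Atf4 itself differed little. It had 24900, 26588 and 25338 normalized counts in empty vector and 22927, 24227 and 22715 in SAM1, and fell by 0.14 (SE 0.0325, adjusted p = 0.00187), with 32853 ± 292 (SD, n = 3) in SAM2. ATF4 is controlled mainly in translation, which these data do not measure. The glutamine transporter gene Slc38a2, the member with the highest mean normalized count (counts are not adjusted for gene length), rose by 0.14 (adjusted p = 0.00463).

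**Figure D3:**
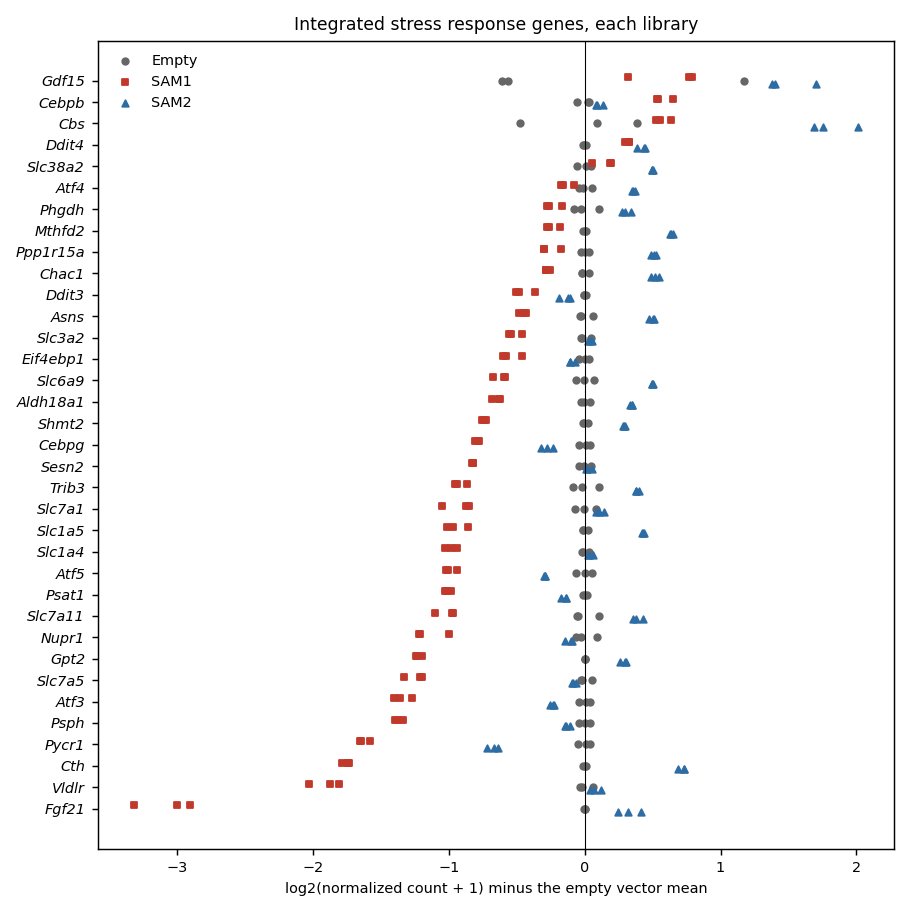
Each row is 1 of 35 integrated stress response genes, and points give each library's log2 normalized count minus the empty vector mean (x axis). The 3 SAM1 libraries (red squares) lie left of all 6 others in 30 rows, while most SAM2 libraries (blue triangles) lie near or right of the empty vector libraries (grey circles).

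The amino acid response element recognized by ATF4 with C/EBP partners, searched as TGATGNAA on either strand, was found in 7 of 34 promoters of the list (20.6%) and in 2.42% of all promoters. The matches are shown in capitals.
Atf3, chr1:190915622-190915651, minus strand: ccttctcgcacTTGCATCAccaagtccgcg
Gpt2, chr8:86218828-86218857, plus strand: tatggctgggaTGATGAAActcaaggcgaa
Pycr1, chr11:120534659-120534688, minus strand: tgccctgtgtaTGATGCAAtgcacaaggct
Vldlr, chr19:27194209-27194238, plus strand: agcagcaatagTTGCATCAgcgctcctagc
Fgf21, chr7:45265035-45265064, minus strand: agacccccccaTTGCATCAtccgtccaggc
Slc7a11, chr3:50398091-50398120, minus strand: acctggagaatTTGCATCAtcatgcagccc
Chac1, chr2:119181519-119181548, plus strand: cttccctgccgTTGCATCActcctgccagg
Pycr1 makes proline, Vldlr is a lipoprotein receptor, Slc7a11 imports cystine and Chac1 degrades glutathione. They fell by 1.63, 1.90, 1.02 and 0.27. The median over the genes with a match was -1.35, and -0.65 over the 27 without.

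Endoplasmic reticulum chaperones and folding sensors also fell. Of 26 genes measured, 21 fell and 2 rose in SAM1 (median -0.31, SAM2 -0.36). Hspa5, the lumenal chaperone BiP, was at 94319, 100348 and 98438 normalized counts in empty vector and at 62367, 66015 and 62274 in SAM1, with no overlap, a fall by 0.62 (SE 0.0321, adjusted p = 1.04e-09). Hyou1, a nucleotide exchange factor for BiP, fell by 0.85 and Xbp1, a transcription factor of the unfolded protein response, by 0.67.

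Metabolic lists moved in different directions. Of 28 cholesterol genes, 21 fell and 4 rose (median -0.38). Insig2, which retains the sterol sensor in the endoplasmic reticulum, fell by 1.43 (SE 0.0299, adjusted p = 1.69e-13), from 8782, 9036 and 8972 to 3415, 3217 and 3344 normalized counts, and the synthase Hmgcs1 fell by 0.63. Of 26 glycolysis genes, 18 rose and 5 fell (median 0.29). Among the 26, 15 were higher in SAM1 than in both other groups, beside 20.4% of all genes. The phosphofructokinase gene Pfkp rose by 1.65 and Pfkfb4, which makes its activator, by 1.85, while Pkm, the pyruvate kinase gene with the highest normalized count of the list, was lower by 0.10 (adjusted p = 0.0157), a difference that turned to 0.26 under quantile normalization. Without SAM1 library 1 or 3 or empty vector library 2 the call on Pkm was lost (-0.09, -0.08 and -0.07), and without SAM1 library 3 or empty vector library 2 the list held 3 lower members.

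Of 31 antioxidant genes regulated by NRF2, 19 rose and 6 fell (median 0.18). The glutathione transferase gene Gsta4 rose by 2.94 on the log2 scale, with 342, 390 and 397 normalized counts in empty vector, 2827, 3087 and 2739 in SAM1 and a SAM2 mean of 890 ± 11 (SD, n = 3). SAM1 lay above every other library (adjusted p = 1.45e-13). The quinone reductase Nqo1 rose by 1.52.

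Most measured genes of the mitochondrial genome were higher in SAM1. Of 17 such genes, 16 rose, with a median of 1.04 beside 0.22 in SAM2. Not among the 17 were mt-Co2, mt-Co3, mt-Atp6, mt-Nd3 and mt-Nd4l, while several were tRNA genes with low counts. The 17 genes took 0.834 to 0.972% of all normalized counts in empty vector, 1.98 to 2.16% in SAM1 and 1.27 to 1.36% in SAM2. These are thus not shares of all mitochondrial RNA. The large ribosomal RNA gene mt-Rnr2 was at 55478, 57203 and 60855 in empty vector and at 158294, 162083 and 162089 in SAM1, an increase of 1.48 (SE 0.0335, adjusted p = 3.37e-13). The respiratory chain subunits mt-Nd1, mt-Cytb and mt-Co1 rose by 1.06, 0.94 and 0.68. The subunit mt-Nd6 rose by 0.25 in SAM1, with libraries overlapping empty vector, and fell by 0.61 in SAM2. These genes were looked at after their values were seen.

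Interferon-stimulated genes were lower in SAM1. Of 67 genes measured, 57 fell and 5 rose (median -1.08). All 7 interferon-inducible GTPases fell, as did 30 of 35 effectors, 10 of 11 antigen presentation genes and 10 of 14 sensors and signalling genes. In SAM2 the median was -0.64, and 43 of the 67 genes (64.2%) were lower in SAM1 than in both other groups, beside 20.6% of all genes.

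Bst2, a membrane tether of budding virus, was measured at 17299, 19795 and 18386 normalized counts in empty vector and at 3690, 4178 and 3700 in SAM1. The groups were far apart, a fall by 2.26 (SE 0.052, adjusted p = 3.83e-13), and SAM2 lay between them at 7843 ± 100 (SD, n = 3). Irgm1, a GTPase of antibacterial defence, was at 4356, 4519 and 4356 in empty vector, at 1747, 1667 and 1666 in SAM1 and at 3975 ± 87.4 (SD, n = 3) in SAM2. Its fall by 1.38 (SE 0.0332, adjusted p = 5.91e-13) was thus larger in SAM1 than in SAM2, where it was by 0.15, and SAM1 minus SAM2 was -1.23 (adjusted p = 7.54e-12). The class I heavy chain gene H2-K1 fell by 1.64 from 16713, 18048 and 17078 to 5417, 5772 and 5429, but may share reads with related H-2 genes. B2m, the light chain and the member with the highest normalized count, fell by 0.75, from between 80699 and 84432 to between 49050 and 50223. Irf7, the amplifier of interferon transcription, fell by 2.52.

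The interferon-stimulated response element, searched on either strand as a pair of GAAA runs with any 2 bases between them, lay in 27 of 67 promoters of the list (40.3%) and in 3.52% of all promoters, and is shown in capitals for genes of different function.
Bst2, chr8:71990221-71990250, minus strand: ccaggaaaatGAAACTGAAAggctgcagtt
Irgm1, chr11:48762252-48762281, minus strand: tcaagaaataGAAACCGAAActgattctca
Ifit3, chr19:34560797-34560826, plus strand: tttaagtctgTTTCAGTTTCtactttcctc
Isg15, chr4:156285322-156285351, minus strand: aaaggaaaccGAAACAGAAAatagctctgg
Usp18, chr6:121222796-121222825, plus strand: ggatctagggGAAAACGAAAgcttggcggt
Ifit3, an RNA-binding antiviral protein gene, fell by 2.28, but has a near-identical copy, Ifit3b, whose promoter window holds the same 30 bases. The ubiquitin-like modifier Isg15 fell by 1.86 and its protease Usp18 by 1.12. Medians were -1.21 with a match and -0.97 without. Not every gene with a match fell. Among them Nlrc5 rose by 0.25 (adjusted p = 0.000948, limma), and Eif2ak2 and Oas1g were not called (-0.09 and 0.02).

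Secreted matrix and its modifiers changed gene by gene. Of 51 matrix glycoprotein and proteoglycan genes, 29 fell and 15 rose (median -0.23, and -0.15 without empty vector library 1). Lower in SAM1 than in both other groups were 24 of them (47.1%), beside 20.6% of all genes. Among proteoglycans 9 of 12 fell. Podn, the leucine-rich proteoglycan podocan, was at 2453, 2363 and 2238 normalized counts in empty vector and at 58.8, 43.4 and 76.2 in SAM1, a log2 difference of -5.32 (SE 0.143, adjusted p = 1.68e-12), with 275 ± 11.9 (SD, n = 3) in SAM2. The collagen-binding proteoglycan gene Dcn fell by 2.12 and Ccn3, a matricellular protein gene, by 1.65, from 16303, 15896 and 16185 to 5144, 5129 and 5115. The collagen cross-linking oxidase gene Loxl2 rose by 2.62, from 880, 863 and 853 to 5472, 5131 and 5424, and was higher still in SAM2 at 15077 ± 155 (SD, n = 3). Fibronectin, Fn1, the member with the highest normalized count, was lower by 0.23 (adjusted p = 0.0352), with libraries of the groups overlapping. This call was lost without SAM1 library 2 (-0.14), empty vector library 1 (-0.13) or empty vector library 3 (-0.22), by DESeq2 on recovered reads (-0.23), in a fit of the 6 SAM1 and empty vector libraries (-0.23) and under quantile normalization (0).

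Collagens split by type. Of 33 genes measured, 17 rose and 13 fell (median 0.23, but -0.03 among genes with a mean of at least 50), with 6 of 10 fibrillar collagens lower and 5 of 7 basement membrane collagens higher. Col2a1, the cartilage fibrillar collagen, was at 183, 187 and 178 normalized counts in empty vector, at 6485, 6449 and 6653 in SAM1 and at 1950 ± 51.4 (SD, n = 3) in SAM2. This increase of 5.15 (SE 0.0382, adjusted p = 9.87e-18) left no overlap between the groups. Col18a1, the source of endostatin, rose by 2.63 and Col5a2, a regulator of fibril diameter, fell by 1.17. Col1a1, the main collagen of connective tissue, had 224137, 232100 and 208450 in empty vector and 178479, 171059 and 176656 in SAM1. It fell by 0.34 (SE 0.0395, adjusted p = 4.36e-06), although quantile normalization gave 0.07, and in SAM2 it was higher than in empty vector by 0.39.

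Proteases and other secreted factors of senescent cells were no more often higher than lower. Of 43 measured, 19 rose and 18 fell (median 0.14, and -0.02 without empty vector library 1). The matrix metalloproteinase Mmp2 and its inhibitor Timp2 fell (log2 differences of -1.56 and -1.45), and the stromelysin gene Mmp3 rose by 2.71. The IGF-binding protein genes Igfbp3 and Igfbp2, which hold insulin-like growth factors in the extracellular space, fell by 4.25 and 5.00. Igfbp3 was at 2534, 2465 and 2474 normalized counts in empty vector and at 134, 128 and 127 in SAM1, far below.

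Smooth muscle markers were higher in SAM1. All 9 smooth muscle and pericyte markers rose (median 2.18), and their summed level went from between 59705 and 63478 normalized counts to between 118478 and 127422. Cnn1, the actin-binding calponin, was at 452, 435 and 387 in empty vector and at 5725, 6136 and 5608 in SAM1, without overlap, an increase of 3.78 (SE 0.0537, adjusted p = 5.65e-15). Acta2, smooth muscle actin, rose by 1.40 from 24132, 25339 and 23666 to 63478, 66517 and 62966, and the myosin light chain Myl9 by 2.23. In SAM2 these 3 genes averaged 4417, 55576 and 5091. In the wider contractile list, by contrast, 18 of 36 genes rose, 14 fell and the median was 0.08.

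Markers of other cell types were also examined, because in bulk RNA more cells of a type and more of its RNA per cell cannot be told apart. Of the 9 chondrocyte markers, 6 were measured, 5 rose and 1 fell, and their sum went from 2401 to 2488 in empty vector to 13544 to 13892 normalized counts in SAM1, while Col9a1, Matn1 and Hapln1 are not in the table. Sox9, the chondrocyte transcription factor, rose by 1.83 from 1776, 1742 and 1676 to 6162, 6082 and 6242, with 2338 ± 66 (SD, n = 3) in SAM2. Of 8 osteoblast markers, 4 were measured, of which 3 rose and 1 was not called. The sum over these 4 was 28179 to 29272 in empty vector and 61239 to 64136 in SAM1. Bglap, Alpl, Ibsp and Dmp1 are not in the table. The sum over 5 endothelial markers was 428 to 468 and 4922 to 5343, mainly from Kdr, a VEGF receptor gene, and Tie1, Erg, Emcn and Cldn5 are not in the table. Of 10 leukocyte markers, 4 were measured (sums 1487 to 1524 and 2513 to 2673), and Ptprc, Adgre1, Itgam and Tyrobp, which define these cells, are not in the table. Of 9 epithelial markers, 4 were measured (1916 to 2064 and 3558 to 3988), without Epcam, Krt5 or Krt14. Sums were likewise higher for 3 skeletal myoblast markers (114 to 152 and 395 to 415), 4 adipocyte markers (1082 to 1114 and 3293 to 3666), 6 neural markers (3218 to 3446 and 9492 to 9615) and 2 melanocyte markers (214 to 259 and 319 to 357). Of the myoblast list, Myod1, Myog, Myf5, Pax7, Myh3 and Ckm are not in the table. Also absent are Adipoq, Plin1, Cfd and Lep (adipocyte), Sox10, Gfap, Sox2 and Elavl3 (neural), and Tyr, Dct, Tyrp1 and Mlana (melanocyte). The measured members of these lists were not all higher. Of the adipocyte markers 3 rose and Cebpa fell (log2 difference -1.04), and of the neural markers 3 rose while Stmn2 and Map2 fell (-3.65 and -1.06). Of the melanocyte markers 1 rose. The sum over 4 mesothelial markers went the other way, from 9423 to 10067 to 4106 to 4593, where Msln, mesothelin, fell by 3.76 and Upk3b by 1.90 while Lhx9 and Krt19 rose. The part of these other cell types in the lists above was not tested.

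Signalling genes differed in SAM1, some of them in SAM2 as well. In the TGF-beta and BMP list, 26 of 43 genes rose and 14 fell (median 0.17). Tgfbr2, the ligand-binding TGF-beta receptor, was at 56147, 51728 and 54451 normalized counts in empty vector and at 8401, 7815 and 8490 in SAM1, far apart, a log2 difference of -2.72 (SE 0.0381, adjusted p = 5.16e-15). In SAM2 it was lower than in empty vector too, at 14893 ± 330 (SD, n = 3), so a fall was shared by both lines. The inhibitors of differentiation Id1, Id2, Id3 and Id4, immediate targets of BMP signalling, all rose, by 1.10, 2.20, 1.13 and 2.07, and all 4 were above every SAM2 library as well. Id2 went from 533, 558 and 544 to 2369, 2648 and 2513, beside 630 ± 36.6 (SD, n = 3) in SAM2. Id4 went from 352, 371 and 383 to 1540, 1564 and 1544, beside 338 ± 10.8 (SD, n = 3). Against empty vector, the BMP effector Smad9 rose by 2.79 and the activin antagonist Fst by 2.31 in SAM1.

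In the Wnt list, 26 of 41 genes rose and 11 fell (median 0.41). Lef1, the transcription factor that binds beta-catenin, was at 53.2, 67.2 and 65.4 normalized counts in empty vector, at 955, 952 and 969 in SAM1 and at 144 ± 10.1 (SD, n = 3) in SAM2. SAM1 lay above all other libraries, with an increase of 3.94 (SE 0.094, adjusted p = 5.51e-13). The ligand Wnt4 rose by 2.37 and the secreted Wnt deacylase Notum by 1.23, while both fell in SAM2 (-0.68 and -1.72).

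Growth factor genes showed no lean as a list (23 of 53 rose, 25 fell, median -0.02). Within it, Kdr was at 238, 217 and 176 normalized counts in empty vector and at 4712, 4490 and 4877 in SAM1, with no overlap, an increase of 4.48 (SE 0.0874, adjusted p = 8.4e-14), against 536 ± 27.3 (SD, n = 3) in SAM2. The fibroblast growth factor genes Fgf2 and Fgf7 rose by 3.52 and 1.39. Of 29 AP-1 and immediate early genes, 19 fell and 8 rose (median -0.26). Egr1, a serum-induced zinc finger factor, was lower by 0.13 (adjusted p = 0.00206), a direction that quantile normalization turned to 0.07.

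Positional and lineage transcription factors changed in part. Of 39 Hox genes, 17 were measured, 10 rose and 5 fell, the latter 3 without SAM1 library 3 or empty vector library 3. All 6 measured genes of cluster A rose, with a median of 3.00 (SAM2 2.71), among them Hoxa5 from 7.2, 11.6 and 9.3 to 137, 164 and 152 normalized counts, an increase of 3.89 (SE 0.166, adjusted p = 1.47e-10). Hoxa3 rose by 3.46. In cluster D Hoxd9 fell by 1.58, and no gene of cluster C is in the table. Of 55 mesenchymal transcription factor genes, 35 rose and 13 fell (median 0.45, SAM2 0.09). Higher in SAM1 than in both other groups were 27 of the 55, beside 20.4% of all genes. Prrx1, a limb and craniofacial homeobox gene with the highest normalized count of them, fell by 0.24, and was not called under quantile normalization (-0.02, adjusted p = 0.646).

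Epidermal genes, a list of cornified envelope, keratin and epithelial adhesion genes, moved apart in the lines. Of 19 measured, 7 rose and 9 fell in SAM1 (median -0.42, and -0.20, -0.74 or -0.67 without empty vector library 1, 2 or 3), beside a median of 3.54 in SAM2. Among the 12 envelope genes 2 rose and 8 fell (median -1.66, SAM2 4.41), and of 4 epithelial adhesion genes 3 rose. Sprr2f, a cross-linked envelope precursor, was at 95.1, 120 and 112 normalized counts in empty vector, at 0.9, 2 and 1 in SAM1 and at 4792 ± 77.7 (SD, n = 3) in SAM2. SAM1 lay lowest and SAM2 highest. The Sprr2 genes are near-identical copies, so how reads divide among them is uncertain. The tight junction gene Cldn4 went the other way, from 369, 382 and 346 in empty vector to 3680, 3771 and 3621 in SAM1 and 211 ± 21 (SD, n = 3) in SAM2, an increase of 3.33 in SAM1 (SE 0.0673, adjusted p = 1.18e-13).

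The largest increases were mostly of genes that empty vector cells hardly expressed, and of the 10 largest, Tmem35a and Tenm3 also rose in SAM2. Tmem35a, encoding a chaperone of nicotinic acetylcholine receptors, had 1 read over the empty vector libraries and 4683 over the SAM1 libraries, and the ratio of these read sums, each scaled by the mean normalized value of 1 read in its group, was 4209 (95% counting interval 755 to 166264). Its values were 0, 0 and 1.2 normalized counts in empty vector, 1506, 1559 and 1482 in SAM1 and 16.7 to 20.8 in SAM2. Spon1, an extracellular matrix protein of the nervous system, was at 0, 1.1 and 2.3 in empty vector, at 2218, 2103 and 2183 in SAM1 and at 0 to 1.9 in SAM2, a scaled read ratio of 2008 (687 to 9738). Neither gene exceeded 20.8 normalized counts outside SAM1.

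Brinp3, BC030500 and Syt16 had no read in any empty vector library, and taken against a floor of 3 reads per library were at least 72.2-fold, 68.2-fold and 52.1-fold higher in SAM1. Brinp3, a neural growth inhibitor, had 234, 239 and 230 normalized counts in SAM1. C2cd4b and its neighbour C2cd4a on chromosome 9, nuclear calcium-dependent lipid-binding family genes, reached 1145, 1215 and 1177 and 351, 380 and 375 in SAM1 with at most 1.1 in any empty vector library. The teneurin Tenm3 had 542, 481 and 554 beside 0 to 2 in empty vector and 22.8 ± 1.26 (SD, n = 3) in SAM2, and Vat1l 243, 252 and 263.

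Tmem255a, a membrane protein gene of the X chromosome (37285450 to 37341418, minus strand), reached far higher normalized counts. It had 179, 128 and 165 normalized counts in empty vector, 78337, 71240 and 79448 in SAM1 and 12.9, 57.5 and 16.7 in SAM2. SAM1 lay 485-fold above empty vector, and SAM2 lay below it. The log2 difference in SAM1 was 8.93 (SE 0.374, adjusted p = 1.26e-10).

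**Figure D4:**
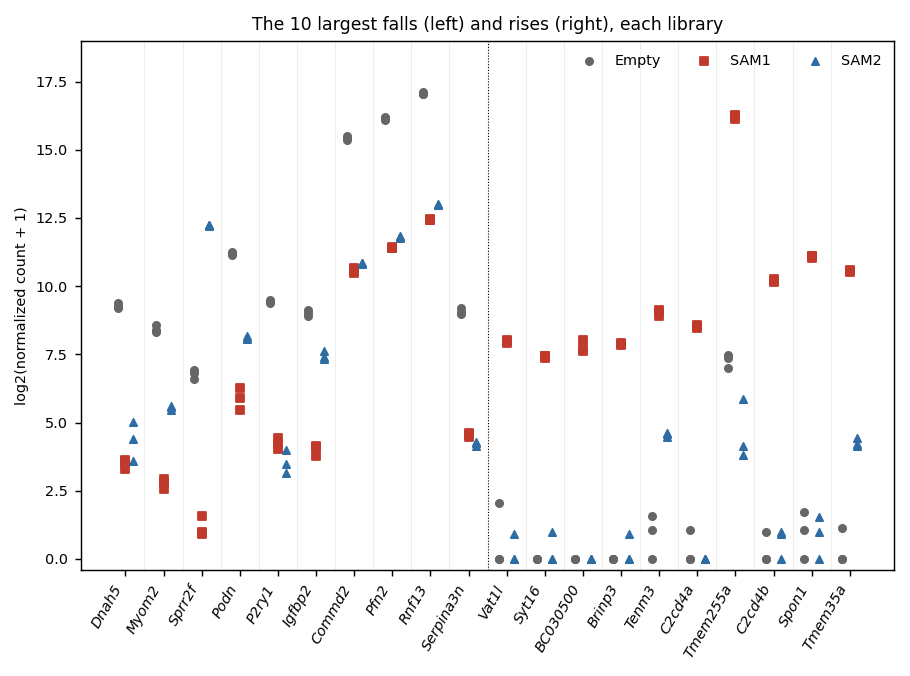
Log2 of the normalized count plus 1 (y axis) in each library for the 10 largest falls (left of the dotted line) and 10 largest increases (right) of SAM1 against empty vector. Grey circles are empty vector, red squares SAM1 and blue triangles SAM2, whose libraries lie near SAM1 in most falls and near empty vector in most increases.

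Among the largest falls were Dnah5, a ciliary dynein heavy chain, and Myom2, a protein of the sarcomeric M-band. Dnah5 was at 661, 586 and 625 normalized counts in empty vector and at 11.4, 8.9 and 10.7 in SAM1, a fall by 5.79 (SE 0.268, adjusted p = 3.47e-10). Myom2 was at 376, 337 and 321 and at 6.6, 4.9 and 5.9, a log2 difference of -5.67, with 45.8 ± 2.83 (SD, n = 3) in SAM2. The ADP receptor P2ry1 and the protease inhibitor Serpina3n fell by 5.22 and 4.53.

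Several of these falls were of highly expressed neighbours. In a run on chromosome 3, Tm4sf1, Tm4sf4, Wwtr1, Commd2, Rnf13 and Pfn2 fell, with log2 differences of -2.17, -1.33, -4.35, -4.87, -4.64 and -4.73 in order of position, and the predicted genes Gm26671 and Gm43437 between them fell too. Wwtr1, encoding the YAP partner TAZ, was at 216588, 203745 and 215415 normalized counts in empty vector and at 10490, 10052 and 10551 in SAM1. Rnf13, a lysosomal ubiquitin ligase gene, went from 136089, 134654 and 142198 to 5620, 5499 and 5442, and Pfn2, an actin-binding profilin, from 69219, 75216 and 73318 to 2725, 2728 and 2760. The next gene on the far side, Tsc22d2, fell by 0.62. Beyond it Serp1 fell by 0.44, Eif2a was not called (0.05) and Siah2 fell by 0.46.

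On chromosome 15 the genes Ank, Otulin, Otulinl, Trio and Dnah5 lie in 1 stretch and fell, with log2 differences of -2.52, -4.43, -2.99, -3.97 and -5.79. The weakly expressed Tiaf2 and Gm20555 within it fell too (-1.03 and -1.71). Before Ank, Retreg1 fell by 1.82 and Fbxl7 rose by 2.48. Wwtr1, Rnf13, Pfn2, Commd2, Trio and Otulin together took 1.48 to 1.57% of all normalized counts in empty vector, 0.0809 to 0.0862% in SAM1 and 0.108 to 0.109% in SAM2. The empty vector libraries thus stood apart from both SAM lines at these 6 genes. They were picked out after their values were seen, and no other empty vector culture is among the libraries to compare them with.

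Whole chromosomes differed in their balance. On chromosome 14, 376 of 513 genes rose and 58 fell, with a median of 0.53, and SAM2 had 0.57. On chromosome 2, 719 of 1146 rose and 168 fell (0.27, SAM2 0.16). On chromosomes 7 and 1 more genes fell, 612 of 1085 (-0.27, SAM2 -0.24) and 441 of 865 (-0.22, SAM2 -0.18). In consecutive blocks of 20 genes, 29 of 728 had a median of at least 0.5, of which 15 were on chromosome 14 (of 25 there) and 8 on chromosome 2 (of 57), and 13 had a median of -0.5 or less, 7 of them on chromosome 1 (of 43). DNA copy number was not measured.

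**Figure D5:**
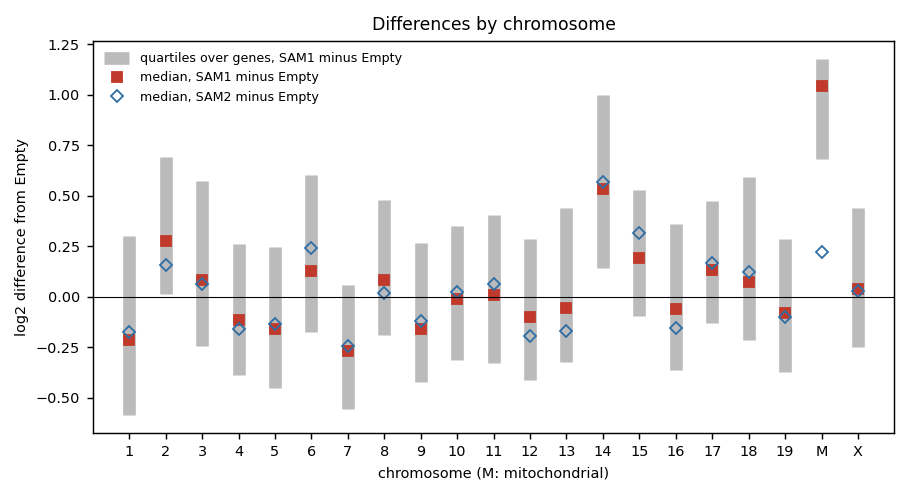
Median log2 difference from empty vector over the genes of each chromosome (y axis), with red squares for SAM1, open blue diamonds for SAM2 and grey bars for the quartiles over genes in SAM1. Chromosome 14 lies highest among the nuclear chromosomes at 0.53, and the 17 measured genes of the mitochondrial genome (M) reach 1.04 in SAM1 and 0.22 in SAM2.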

How the data were processed

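PolyA+ RNA of 9 libraries was sequenced by the authors on a NextSeq500 with paired reads of 43 bases. Per the study's methods, the authors checked reads with FastQC 0.11.0, aligned them with TopHat2, Bowtie2 and SAMtools (3 mismatches, 20 multihits), counted them with HTSeq over GENCODE genes of GRCm39, divided counts by DESeq2 size factors and kept genes above 10 in at least 30% of libraries. The deposited values are therefore a normalized signal and not raw counts. Dividing by the value of 1 read gave whole reads (within 0.1) in all 8 libraries where a step was found.

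Differences were tested in R 4.3.3 with limma 3.58.1 on log2(normalized count + 1), 3 groups and 9 libraries, two-sided, with Benjamini-Hochberg adjustment over all 15184 genes and a threshold of 0.05. Log2 differences are on that scale and understate the change of low genes. The members and the gene lists were chosen with earlier results of these data known. Genes named are Hnrnpk, Rmi1 and 8 fixed genes, the 10 largest changes each way, the 6 each way that set SAM1 apart, and in each list the 3 with the smallest p and the 1 with the highest mean, though some of these are not reported here. The remaining genes named, among them those shown with a sequence, the Id genes, neighbours in runs and further list members, were chosen after their values were seen. Positions and sequences are from GRCm39 with GENCODE, where 14791 gene names had a single match, 68 had several and 325 had none. Alternatives used edgeR 4.0.16 and DESeq2 1.42.0 on recovered reads. The statistics were checked on simulated data. Intervals cover counting error only.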

Additional observations from a re-analysis of the deposited data

Results flagged for a closer look

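In 18 of the 152 genes named by the fixed rule, SAM1 and SAM2 moved in opposite directions from the same empty vector libraries, without overlap. A gene was listed only if each line passed the limma threshold against empty vector. The difference between the lines also had to pass it (adjusted p from 1.91e-14 to 1.2e-05), so these p-values are no further support. The fixed rule favours large changes in SAM1, and the same count over all 15184 genes was not made. The values that follow are log2 SAM1 minus SAM2. Higher in SAM1 were Tmem255a (11.62), the tight junction gene Cldn4 (4.13), the fatty acid carrier Fabp4 (2.50), lysozyme Lyz2 (1.98), the acetylcholine receptor subunit Chrna1 (1.78) and the TGF-beta-inducible factor Klf10 (1.21). Fabp4, for example, had 613, 651 and 613 normalized counts in empty vector, 2063, 2480 and 2153 in SAM1 and 394 ± 15.8 (SD, n = 3) in SAM2.

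Lower in SAM1 were the envelope precursors Sprr2f (-11.05), Sprr2b (-8.40), Sprr2d (-7.99) and Sprr2g (-7.04), the kidney androgen-regulated gene Kap (-9.16), the scramblase family gene Ano5 (-7.01), Hoxb9 (-3.71), Cth (-2.47), Gpt2 (-1.51), Ccnd2 (-0.94), Col1a1 (-0.73) and Egr1 (-0.68). Kap had 58 reads over the empty vector libraries and 0 in SAM1, at least 7.11-fold lower, and a mean of 572 normalized counts in SAM2. Ano5 had 16 reads and 0, at least 1.99-fold lower. Sprr2b had 34 reads and 2 (depth-scaled read ratio of empty vector to SAM1 18.9, 95% counting interval 4.85 to 163) and Sprr2d 44 and 3 (16.3, 5.23 to 82.2). Hoxb9 had 393, 333 and 353 normalized counts in empty vector, 253, 258 and 228 in SAM1 and 3234 ± 35.4 (SD, n = 3) in SAM2. For Col1a1 and Egr1 quantile normalization reversed the direction of SAM1 against empty vector, and for Chrna1 it ended the call (0.43, adjusted p = 0.0909).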

How the results depend on the processing

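Each result was recomputed with a pseudocount of 10, a mean of at least 50, quantile normalization, a fit of 6 libraries, edgeR, DESeq2, the replicate block and each library left out. The number of genes called stayed between 9641 and 11631, and with a library left out between 10734 and 11150. With a library left out, 30 integrated stress response genes were lower and apart, 93 mitosis genes higher, 55 to 57 interferon genes lower and 41 to 53 ribosomal protein genes lower, the last 32 under quantile normalization. That normalization moved the median of all genes to -0.05 and reversed Hnrnpk (0.0944), Col1a1 (0.0735), Srebf2 (0.19), Pkm (0.26), Fth1 (0.29) and Egr1 (0.0689). The cause was not tested. Fn1, with the highest value in every library, came to 0 by its construction. Over 152 named genes and 16 alternatives, 2395 values kept direction and call, 15 lost the call and 8 gained it. Replicate numbers are shared by the groups, but same-numbered libraries correlated at only 0.0269 to 0.117 in their deviations, although 6 of 6 libraries correlated best with their own number. They share only a number, and the replicate block gave 11631 calls (76.6%).

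The depth limits genes near the floor of 3 reads, where folds are bounds, and the data cannot tell the guide from the line.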
